A study of Mus musculus with 67 samples.

Results

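Chromatin accessibility was examined at the elements assigned to Hox genes of the Hoxa, Hoxb, Hoxc and Hoxd clusters in neural progenitors (NPs) made from mouse embryonic stem cells. A member was any accessible element whose gene in the deposited annotation was 1 of 38 named Hox genes. Of the 111638 elements with values, 87 met this rule, with 15 in the Hoxa, 29 in the Hoxb, 31 in the Hoxc and 12 in the Hoxd cluster. Of the 38 genes, 37 had at least 1 such element and Hoxc5 had none, and 12 more elements annotated to these genes carried no values. The annotation placed 41 of the 87 elements between genes, 17 in introns, 13 in exons, 11 at promoters and 5 at transcription ends. Each element is named here by its gene and its distance in bp from the transcription start site (TSS) of that gene, so that Hoxc4 +31338 lies 31338 bp downstream of the Hoxc4 TSS. The 36 further elements that lie between members but are annotated to other genes, such as noncoding RNAs, were not counted.

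All cells came from HM1, a single unmodified line of mouse embryonic stem cells, and no genotype differed between groups. The cells were grown first with bFGF and LGK, a blocker of WNT secretion. They were then grown with bFGF, a WNT agonist and inhibitors of TGF-beta and BMP signals to neuromesodermal progenitors (NMPs) at day 3. From then on they received retinoic acid and, except at 0 nM, the Sonic hedgehog pathway agonist SAG. Fixed cells were tagged with Tn5, stained inside the cell and sorted as p0-1, p2, pMN or p3 NPs at days 4, 5 and 6 (CaTS-ATAC), so each NP type is defined by a sort on its transcription factors and not by its position in an embryo. The p0-1 samples came from 0 and 10 nM SAG, the p2 samples from 10 and 100 nM, and the pMN and p3 samples from 100 and 500 nM. The 67 samples made 25 conditions, of which 17 had 3 replicates and 8 had 2. Each sample is a bulk library, so fewer cells with an open element and less opening per cell cannot be told apart.

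Depth was between 9298160 and 29985325 reads in elements per sample. The shallowest libraries were those of day 4 p3 at 100 nM SAG, with 9298160 reads in replicate 1 and 9577692 in replicate 2. The samples of the other NP types at day 4 had between 14866189 and 22066990. Values below are normalized counts, meaning reads per element divided by the sample's size factor. The sort labels were compared with the element nearest the TSS of marker genes. At day 6, Olig2 +742 was at 2325 ± 30.3 in pMN (SD, n = 4) and at 408 to 1005 as the mean of the other NPs, and Foxa2 +1458 was at 1662 ± 486 in p3 (SD, n = 4) and at 261 to 306 in the others. T -759 was at 1175 ± 113 in NMPs (SD, n = 3) and below 150 as a mean in every NP type at day 6, whereas Tbx6 -913, the element of another gene listed as an NMP marker, was at 778 in NMPs and at 693 to 857 as the day 6 means of NPs and so did not set NMPs apart. Markers of other cells were not at 0: on day 6 the means of the Sox10, Sox17 and Pou5f1 elements were between 22.9 and 98.4 in NPs, and the Meox1 element was at 856 in p3 and between 274 and 369 in the other NPs. One library stood apart, p0-1 at day 4 with 10 nM SAG, replicate 3. Its T element was at 468 against 182 to 294 in the other 5 libraries of that group, its Cdx2 element at 1243 against 418 to 826, and its posterior Hox elements summed to 10550 against 4743 to 6857.

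Hox genes encode homeodomain transcription factors that give cells their position along the head-to-tail axis. In each cluster the genes lie in the order in which they are used, with paralogues of low number active early and in the hindbrain, and those of high number active late and in the trunk and tail. In NMPs, WNT and FGF signals and the Cdx factors open the trunk and posterior genes, while retinoic acid acts through direct repeats bound by its receptors on genes of low number. Here paralogues 1 to 3 are called anterior (21 elements), 4 to 8 central (33 elements) and 9 to 13 posterior (33 elements).

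The sequences of 4 elements on which the results turn are shown first. They are the central 300 bases of each element, read 5′ to 3′ on the plus strand of GRCm38 (mm10), and capitals mark letters that match a searched motif. Hoxc4 +31338 and Hoxc4 +4659 had the largest increases after NMP, Hoxa4 -3089 the largest increase from day 4 to day 6, and Hoxd4 -643 the largest decrease after NMP.
Hoxc4 +31338, chr15:103065584-103065883: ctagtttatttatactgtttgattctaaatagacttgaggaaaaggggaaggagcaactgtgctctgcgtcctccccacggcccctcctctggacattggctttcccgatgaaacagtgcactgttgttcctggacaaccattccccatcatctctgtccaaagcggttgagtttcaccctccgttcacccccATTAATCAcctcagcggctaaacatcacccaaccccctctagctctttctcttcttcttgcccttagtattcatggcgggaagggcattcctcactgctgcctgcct
Hoxc4 +4659, chr15:103038905-103039204: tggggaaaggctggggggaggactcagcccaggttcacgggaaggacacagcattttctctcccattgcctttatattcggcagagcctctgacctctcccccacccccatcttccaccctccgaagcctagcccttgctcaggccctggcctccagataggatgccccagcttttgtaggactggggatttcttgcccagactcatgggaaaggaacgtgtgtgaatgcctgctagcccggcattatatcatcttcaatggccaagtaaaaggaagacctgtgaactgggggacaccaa
Hoxa4 -3089, chr6:52194643-52194942: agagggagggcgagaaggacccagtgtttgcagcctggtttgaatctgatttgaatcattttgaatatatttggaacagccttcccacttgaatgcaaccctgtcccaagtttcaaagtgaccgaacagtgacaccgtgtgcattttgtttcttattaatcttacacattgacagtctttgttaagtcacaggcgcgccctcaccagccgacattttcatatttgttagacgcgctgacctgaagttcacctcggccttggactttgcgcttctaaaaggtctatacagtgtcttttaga
Hoxd4 -643, chr2:74721186-74721485: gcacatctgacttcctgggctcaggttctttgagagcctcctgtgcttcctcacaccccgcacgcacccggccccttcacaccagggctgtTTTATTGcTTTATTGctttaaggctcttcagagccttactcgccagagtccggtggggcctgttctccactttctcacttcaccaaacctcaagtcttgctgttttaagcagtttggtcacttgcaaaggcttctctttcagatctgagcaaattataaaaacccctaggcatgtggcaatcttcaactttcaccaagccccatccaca
In the Hoxd4 window the capitals are a pair of Cdx motifs, TTTATNG, that begin 8 bp apart. In the Hoxc4 +31338 window they are a Hox-Pbx motif, TGATTNAT, on the minus strand. Neither motif was in the windows of Hoxc4 +4659 and Hoxa4 -3089.

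A direct repeat with a spacing bound by retinoic acid receptors, here 2 copies of GNTCA on 1 strand with 6 bases between them, was found on either strand in 7 of the 87 Hox elements. These copies are shown because retinoic acid was the signal added at day 3, each read on the strand of its match.
Hoxb4 +6418, chr11:96326217-96326232: GCTCAGTTCGCGCTCA
Hoxb3 -3036, chr11:96341237-96341252: GTTCAAGAAGAGTTCA
Hoxb1 +7364, chr11:96372777-96372792: GTTCATAGAGAGTTCA
Hoxb5 -1447, chr11:96298999-96299014: GGTCAGTGTTGGATCA
Hoxc4 +25890, chr15:103061715-103061730: GTTCACCGAGAGTTCA
Hoxb8 -3371, chr11:96278159-96278174: GCTCATCTGAGGCTCA
Hoxb13 -21101, chr11:96172909-96172924: GCTCAGGTGGGGGTCA
Of the 7, 6 lie in the Hoxb cluster. The repeat was present in 8.05% of Hox elements and 3.84% of all elements, but Hox elements were wider, with a median of 1656 bp against 883 bp. In windows of 300 bases at the element centers, none of the Hox elements held the repeat, against 1.26% of all windows. Searched on both strands, the Cdx motif was in 54.0% of Hox and 34.9% of all elements but in 17.2% and 13.4% of the windows, and the Hox-Pbx motif in 25.3% and 15.6% of elements but in 3.45% and 5.99% of windows. The CTCF motif, here CCANNAG followed after 2 bases by GGC, was in 16.1% of Hox elements and 11.8% of all elements, and in 0 of the 87 Hox windows against 4.13% of all windows. Of the 20 Hox elements that rose from day 4 to day 6, described later, 5 held the repeat, namely the first 5 listed. The Cdx motif was in 12 of these 20 (60.0%). Of the 34 that fell from NMP to day 4, 21 (61.8%) held the Cdx motif and 1 the repeat. The share with the Cdx motif was thus close in both sets. Matches describe letters only, and wide elements hold more of them.

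Levels can be compared between elements only per kb. Over all samples the median element had 187 normalized counts per kb among central, 135 among anterior and 69.7 among posterior Hox elements. The highest level per kb was at Hoxc4 +31338 in the Hoxc cluster (1113), at Hoxb4 +1038 in Hoxb (546), at Hoxa2 -176 in Hoxa (536) and at Hoxd1 +131 in Hoxd (281). These means are mostly over NP samples, and the order differed in the 3 NMP samples alone, where the medians per kb were 216 among posterior, 189 among central and 141 among anterior elements. There the highest levels were at Hoxc13 +278 (756), Hoxa7 -3421 (690.1), Hoxb9 +202 (655) and Hoxd1 +131 (444). Over the NP samples of day 6 the medians were 59.1, 220.1 and 127 in the same order.

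**Figure D1:**
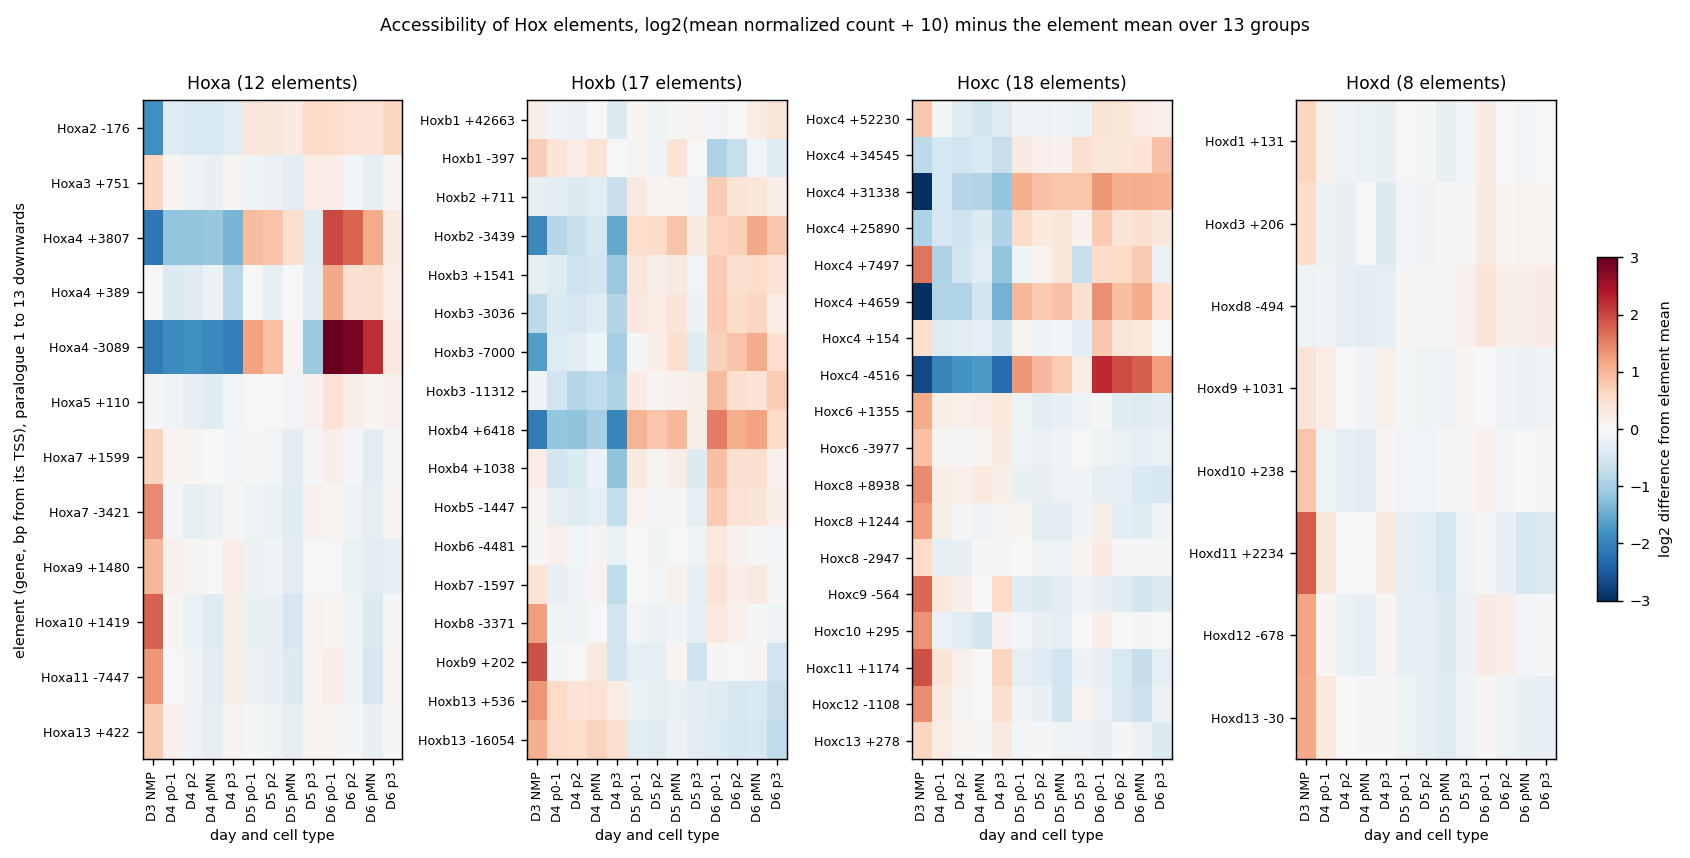
Mean accessibility of the 55 Hox elements with more than 100 normalized counts on average, by cluster (panels), day and cell type (columns); rows run from paralogue 1 at the top to 13 at the bottom, and color gives log2(mean normalized count + 10) minus the mean of the element over the 13 groups. Posterior rows are reddest in the NMP column, while rows such as Hoxa4 -3089, Hoxc4 -4516 and Hoxb4 +6418 are blue in NMPs and at day 4 and red at day 6.

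The first comparison asked how accessibility changed as NMPs became NPs, with the 3 NMP samples set against each NP type at day 4. Many posterior Hox elements lost accessibility, as did fewer central ones, and 4 elements of Hoxa2, Hoxb4 and Hoxc4 gained it. An element was counted as changed when limma gave an adjusted p below 0.01 and a log2 change of more than 1 in size, on the scale of the variance-stabilized values, which understates the change of elements with low counts. Of 66 Hox elements that passed the filter on low values in at least 1 of the 4 fits, 34 fell and 4 rose, where 28.1% and 24.6% of all 34557 elements tested fell and rose. The posterior elements gave 20 of the 34 falls out of 26 tested, the central ones 13 of 28 and the anterior ones 1 of 12. The filter lets in elements through high NMP values, so these counts lean toward falls: 6 of the 26 posterior elements, with 5 of the 20 falls, had a mean of 100 or less in every NP type tested at day 4. With no filter, all 33 posterior elements were tested and 24 fell and 1 rose, beside 14 and 4 of 33 central and 3 and 3 of 21 anterior elements, where 23.2% and 34.8% of all elements fell and rose. By cluster, 14 of 22 tested Hoxc elements fell, 8 of 21 Hoxb, 7 of 11 Hoxd and 5 of 12 Hoxa elements.

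By type, 24 of 65 tested Hox elements fell in p0-1, 27 of 64 in p2, 27 of 64 in pMN and 30 of 64 in p3, beside 22.2%, 25.7%, 25.8% and 25.5% of all elements. Rises numbered 3, 3, 4 and 3, beside 18.0%, 20.5%, 21.0% and 17.5% of all elements. Of the 34 elements that fell, 21 did so in all 4 NP types, and of the 4 that rose, 3 did. The median change over posterior elements was -1.15 in p0-1, -1.38 in p2, -1.42 in pMN and -1.12 in p3, while over all elements tested it was between -0.40 and -0.49. With each sample centered on its median, which takes out that general shift, 20 Hox elements fell (15.7% of all elements did), 14 of them posterior, and 4 rose (27.4% of all elements did). Without the p0-1 library that stood apart, 31 of 66 tested Hox elements fell in p0-1 (25.4% of all) in place of 24, 3 rose (18.0% of all), and over the 4 types 36 fell (28.6% of all) and 4 rose (24.5% of all).

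Several markers of other cells fell over the same step, but not all. The element at Meox1, a somite gene, rose from 77.8 in NMPs to between 185 and 297 as the day 4 means of NPs. The element at Pou5f1, a gene of embryonic stem cells, was at 1513 ± 395 in NMPs (SD, n = 3) and at 76.8 to 106 as the day 4 means of NPs, that at Sox17, an endoderm gene, at 438 and 165 to 219, and that at Sox10, a neural crest gene, at 195 and 53.1 to 71.1. Their part in the falls at Hox elements was not tested.

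Among the falls, Hoxb9 +202 is annotated to exon 1 of Hoxb9, a trunk gene. It was at 1863, 2073 and 2262 in the 3 NMP samples and at 251, 351, 369, 384 and 409.5 in the 5 p3 samples of day 4. All NMP samples were above all NP samples, and the log2 change to p3 was -2.52 ± 0.144 (SE, adjusted p = 9.94e-11). In p0-1, p2 and pMN the change was -2.02, -1.92 and -1.61. After day 4 its level stayed apart from that of NMPs, with day 6 medians between 345 and 603.

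Hoxa10 +1419, in the intron of a posterior gene, was at 686, 699 and 836 in NMPs. At day 4 it lay between 137 and 357 in p0-1, between 133 and 224 in p2, between 147 and 178 in pMN and between 179 and 295 in p3. The groups did not overlap, and the change was largest in pMN, at -2.13 ± 0.113 (SE, adjusted p = 1.17e-10). Hoxc11 +5608, between genes, was at 218, 221 and 235 in NMPs and at 22.3, 33.0, 34.2, 39.8 and 52.5 in day 4 p3. It passed the filter through its NMP values and in the p3 fit alone, so its values are given as a description.

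Promoters of posterior Hoxd and Hoxc genes also fell, several by less than these elements. Hoxd13 -30, at the promoter of the last gene of its cluster, was at 708, 734 and 822 in NMPs and between 236 and 401 in the 6 day 4 pMN samples, a change of -1.19 ± 0.152 (SE, adjusted p = 2.90e-06). In p0-1, where its samples lay between 240 and 774 and the highest was the library that stood apart, the change of -0.94 was under the limit on size. Hoxc9 -564, at the promoter of a trunk gene, was at 365, 411 and 471.5 in NMPs, at 80.5 to 144 in day 4 pMN and at 132 to 226 in day 4 p3, and fell in all 4 types by -1.14 to -1.71. Hoxc13 +278 was at 1193, 1211 and 1227 in NMPs and between 686 and 1127 at day 4, and its changes of -0.40 to -0.63 were not called.

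Summed over elements, the posterior set was at 14260, 14930 and 16380 normalized counts in the 3 NMP samples. At day 4 the sums lay between 4743 and 10550 in p0-1 and between 4904 and 7699 in p2, pMN and p3. At day 6 they lay between 4462 and 6261. The central set was at 15610, 17620 and 18380 in NMPs, had sums of 7907 to 17200 by day 4 and reached 16840 to 34540 by day 6, where the median was 30290 in p0-1 and 18150 in p3. The anterior set lay between 6664 and 8274 in NMPs, between 5176 and 9841 at day 4 and between 9520 and 14370 at day 6.

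Falls were not limited to posterior genes. Hoxd4 -643, at the promoter of a central gene, was at 293, 355 and 407 in NMPs and at 22.2, 32.2, 34.4, 59.2 and 67.0 in day 4 p3, a change of -2.78 ± 0.258 (SE, adjusted p = 3.62e-08). In pMN it lay between 150 and 225 and its change, -0.81, did not pass the limit on size. Hoxc4 +7497 was at 439, 496 and 787 in NMPs and at 64.5, 64.8, 74.9, 76.5 and 96.9 in day 4 p3, a change of -2.70 ± 0.192 (SE, adjusted p = 1.33e-09). It fell in all 4 NP types, and from day 4 to day 6 it rose again in p0-1, p2 and pMN, by 1.51, 1.16 and 1.13, to between 196 and 375. Hoxd4 -643 and Hoxc4 +7497 passed the filter of the p3 fit through their NMP values, with day 4 p3 means of 43.0 and 75.5.

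Hoxc4 +31338 had the largest rise of any Hox element in this comparison. It was at 9.70, 13.5 and 15.1 in the NMP samples. At day 4 it lay between 239 and 525 in p0-1 (median 380), between 217 and 402 in p2 (median 288), between 227 and 355 in pMN (median 323) and between 188 and 274 in p3 (median 259). Every NP sample was therefore more than 10 times above every NMP sample, and the log2 change was 4.05 ± 0.222 in p0-1 (SE, adjusted p = 2.58e-09), 3.73 in p2, 3.74 in pMN and 3.43 in p3. Hoxc4 +4659 was at 41.8, 48.5 and 72.7 in NMPs and between 318 and 468 in day 4 pMN, a change of 2.59 ± 0.166 (SE, adjusted p = 9.70e-10). Both elements passed the filter through their NP values.

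Hoxa2 -176 covers the promoter of Hoxa2, a hindbrain gene, and was the 1 anterior element that rose. Its NMP samples were at 529, 569 and 617 and its day 4 p3 samples at 1540, 1569, 1581, 1601 and 2017, a change of 1.51 ± 0.115 (SE, adjusted p = 3.11e-09), with 1.38 to 1.44 in the other types. Hoxb4 +6418, which holds a copy of the retinoic acid repeat, was at 302, 361 and 372 in NMPs. It rose in pMN, where its 6 samples lay between 572 and 862, by 1.10 ± 0.133 (SE, adjusted p = 1.71e-06), and in p3 its 5 samples lay between 307 and 434 (change 0.15, adjusted p = 0.316).

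The second comparison set day 6 against day 4 within each NP type. Elements of anterior genes and of paralogues 4 and 5 gained accessibility, and none of the 17 posterior elements that were tested passed the limits in that direction. Of 59 Hox elements tested in at least 1 of the 4 fits, 20 rose and 3 fell, where 26.4% and 10.8% of all 38725 elements tested rose and fell. The 20 rises were 7 of 13 anterior, 13 of 29 central and 0 of 17 posterior elements. By cluster, 10 of 18 tested elements rose in Hoxb, 7 of 19 in Hoxc, 3 of 13 in Hoxa and 0 of 9 in Hoxd. With no filter, 21 of 87 Hox elements rose and 9 fell, where 28.6% and 16.4% of all elements did, and none of the 21 was posterior. Over the same days the element at Tubb3 +137, a neuronal gene, moved as a mean from 825 to 1233 in p0-1, from 844 to 2135 in p2, from 776 to 1749 in pMN and from 865 to 1362 in p3. That at Stmn2 +194, another neuronal gene, moved from 307 to 188 in p0-1, from 306 to 340 in p2, from 322 to 272 in pMN and from 337 to 159 in p3. In NMPs their means were 1722 and 641. The part of neurons in the Hox changes was not tested.

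By type, 18 Hox elements rose in p0-1 (14.3% of all elements did), 13 in p2 (16.7%), 11 in pMN (17.0%) and 14 in p3 (16.1%). Falls numbered 1, 1, 2 and 1 (6.59%, 7.01%, 6.67% and 6.66% of all elements). Without the day 4 p0-1 library that stood apart, the counts over the 4 types were again 20 and 3 (26.5% and 10.7% of all). The median change over anterior elements was 0.98, 0.84, 0.76 and 0.97 in p0-1, p2, pMN and p3, and over posterior elements -0.14, -0.09, -0.19 and -0.28, beside 0.18 to 0.26 over all elements tested. With samples centered on their medians, 16 Hox elements rose, 5 of them anterior and 11 central (21.4% of all elements rose), and 7 fell, 4 of them posterior (16.0% of all fell). The plot of change against paralogue number shows both comparisons.

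All 9 elements that rose in all 4 NP types belong to Hoxb2, Hoxb3, Hoxb4 and Hoxc4. Named after their values were seen, they are Hoxb2 -3439, Hoxb3 +1541, Hoxb3 -3036, Hoxb3 -7000, Hoxb3 -11312, Hoxb4 +6418, Hoxc4 -4516, Hoxc4 +4659 and Hoxc4 +31338. The Hoxb3 elements and Hoxb4 +6418 lie in 1 stretch of the cluster inside introns of Hoxb3, and Hoxb2 -3439 at its end. Hoxb2 -3439 was at 22.6, 25.5 and 29.7 in NMPs, between 34.1 and 40.5 in day 4 p3 and at 186, 195, 272 and 273 in day 6 p3, a change from day 4 of 2.28 ± 0.173 (SE, adjusted p = 5.60e-07). In p3 it passed the filter through its day 6 values.

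The largest rise was at Hoxa4 -3089, in an intron annotated to Hoxa3. The element was at 18.9, 20.5 and 20.6 in NMPs and still between 19.5 and 28.9 in the 6 p0-1 samples of day 4. It then lay between 142 and 391 at day 5 and at 783, 1078, 1466, 1605 and 1775 in the 5 p0-1 samples of day 6. The change from day 4 to day 6 was 5.15 ± 0.202 in p0-1 (SE, adjusted p = 7.23e-10), 4.58 ± 0.190 in p2 and 3.96 ± 0.287 in pMN. In these fits the element passed the filter through its day 6 values, with day 4 means of 23.6 to 26.2. In p3 its mean was under the filter, and its values moved from 14.5 to 32.3 at day 4 to 44.7, 82.4, 191 and 274 at day 6, without overlap.

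Hoxa4 +3807, on the other side of the Hoxa4 gene, followed a like course. In p0-1 it lay between 20.6 and 39.5 at day 4 and at 167, 319, 324, 438 and 536 at day 6, a change of 3.03 ± 0.265 (SE, adjusted p = 5.63e-07). Hoxc4 -4516, between genes, lay between 10.8 and 60.6 in day 4 p0-1 and was at 658, 713, 894, 1037 and 1057 at day 6, a change of 4.25 ± 0.287 (SE, adjusted p = 5.06e-08). Its change was 3.72 in p2, 3.49 in pMN and 3.48 in p3. In each of these elements no day 6 sample was as low as any day 4 sample of the same type. Hoxa4 +3807 and Hoxc4 -4516 also passed the filter through their day 6 values, with day 4 p0-1 means of 31.2 and 37.5.

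Some elements within Hox4 and Hox3 genes also rose. Hoxb4 +1038, in the intron of Hoxb4, was at 1675, 1921 and 2045 in NMPs, at 571, 690.1, 705, 740.2 and 745 in day 4 p3 and at 1636, 1708, 1840.2 and 1932 in day 6 p3. It fell in p3 by -1.43 ± 0.118 (SE, adjusted p = 8.05e-09) and then rose by 1.35 ± 0.0935 (SE, adjusted p = 2.97e-07). In p0-1 it rose by 1.46 from day 4 to day 6, while its changes of 0.94 in p2 and 0.66 in pMN were under the limit on size.

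Hoxa4 +389, at the start of Hoxa4, was at 816, 1049 and 1118 in NMPs, between 550.1 and 1207 in day 4 p0-1 and at 1624, 1731, 2395, 2582 and 2670.0 in day 6 p0-1. Its rise from day 4 to day 6 was 1.56 ± 0.208 in p0-1 (SE, adjusted p = 3.04e-05) and 1.07 ± 0.106 in p3, and the changes of 0.82 in p2 and 0.71 in pMN were under the limit. Hoxb3 +1541, in an intron of Hoxb3, a hindbrain gene, rose in all 4 types by 1.07 to 1.48. In p3 it went from 312, 377, 384, 385 and 388 at day 4 to 993, 1002, 1012 and 1199 at day 6, a change of 1.48 ± 0.0985 (SE, adjusted p = 2.34e-07). The elements nearest the annotated start of the other Hox3 genes tested were not called, with changes of -0.07 to 0.21 at Hoxa3 +751 and 0.09 to 0.52 at Hoxd3 +206. Hoxa3 +751 lies in an intron of Hoxaas3 between Hoxa6 +22 and Hoxa7 +1599. Hoxd3 +206 lies at a promoter annotated to Gm38462 between Hoxd8 -494 and Hoxd4 -643. Both were counted as anterior by their gene, and their values do not describe other starts of these genes.

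Hoxb4 +6418 had the largest rise of the Hoxb cluster in every type. From day 4 to day 6 its p0-1 samples went from between 420 and 901 (median 702) to 2936, 3207, 4557, 5264 and 6014, a change of 2.68 ± 0.216 (SE, adjusted p = 2.54e-07). The changes in p2, pMN and p3 were 2.32, 2.21 and 2.49. Hoxc4 +31338 and Hoxc4 +4659 also went on rising, by 1.87 to 2.22 and by 1.66 to 2.27 across the 4 types.

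**Figure D2:**
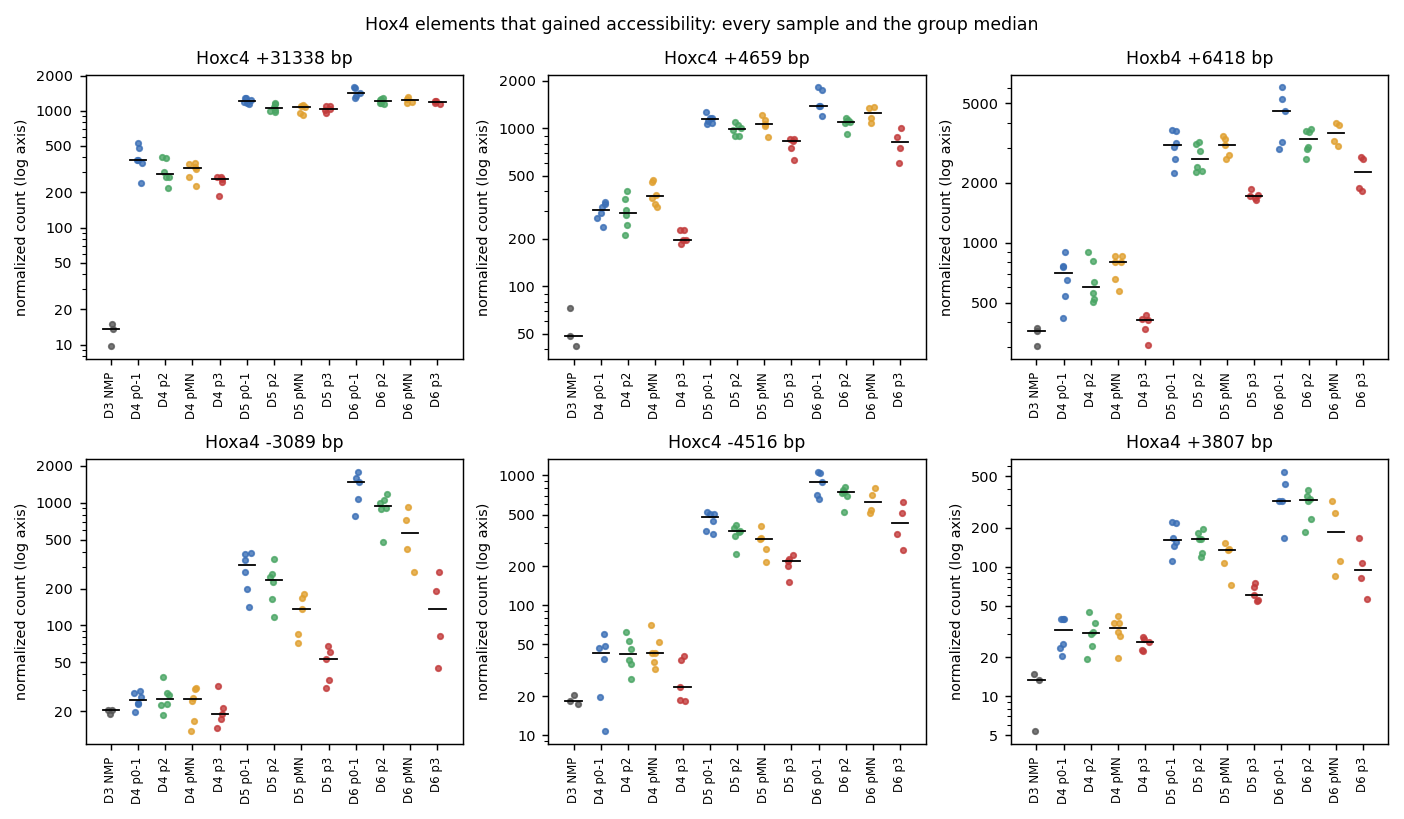
Normalized counts (log axis) of 6 Hox4 elements in each sample, by day and cell type; each point is a sample and the black bar is the group median. Hoxc4 +31338 and Hoxc4 +4659 are already above NMPs at day 4, while Hoxa4 -3089, Hoxa4 +3807 and Hoxc4 -4516 separate from day 4 in every type by day 6, where p3 has the lowest median.

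From day 4 to day 6, 3 Hox elements fell. With limma voom on the recovered reads 16 of 59 rose and 8 fell, where 8520 and 6505 of all 38725 elements tested rose and fell. Hoxd4 -643 fell in pMN, the 1 type where it passed the filter, and there through its day 4 values. It went from 150 to 225 in 6 samples to 30.1, 36.6, 40.9 and 41.2, a change of -2.07 ± 0.139 (SE, adjusted p = 1.84e-08). Hoxb1 -397, at the promoter of the first Hoxb gene, fell in p0-1 from between 681 and 1210 (median 794) to 220.1, 329, 345, 374 and 396, a change of -1.32 ± 0.176 (SE, adjusted p = 2.93e-05). Hoxb13 -16054, upstream of the last gene of the cluster, changed by -1.07 in p2, -1.13 in pMN and -1.23 in p3. In p3 it went from 245 to 455 in 5 samples to 114, 134, 141 and 142 (SE of the change 0.183, adjusted p = 0.000125).

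The elements nearest to a start site were also counted alone. Of the elements nearest to the TSS of each gene, 33 to 34 were tested for the change from day 4 to day 6, and 6 rose in p0-1 (14.3% of all elements did), 1 in p2 (16.7%), 1 in pMN (17.0%) and 3 in p3 (16.1%). Falls numbered 1, 0, 1 and 0 (6.59%, 7.01%, 6.67% and 6.66% of all). From NMP to day 4, 36 to 37 were tested, and 13 fell in p0-1 (22.2% of all), 15 in p2 (25.7%), 15 in pMN (25.8%) and 17 in p3 (25.5%), while 1, Hoxa2 -176, rose in each type (17.5% to 21.0% of all). No test of promoters against other elements was made.

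The third comparison set p3, the most ventral type, against each other NP type at day 6. Few Hox elements differed: 6 of 55 tested were called in at least 1 fit, 1 higher and 5 lower in p3, where 13.7% and 20.2% of all 36431 elements were higher and lower. Against p0-1, 1 was higher and 3 lower (11.7% and 11.5% of all elements), against p2 again 1 and 3 (10.9% and 14.1%), and against pMN 1 and 1 (10.0% and 15.0%). None of 16 posterior elements was called in these 3 limma fits. At an unadjusted p under 0.05, 28 of 54 Hox elements of any group differed between p3 and p0-1 (51.9%, beside 46.4% of all elements), 18 of 55 between p3 and p2 (32.7% beside 48.4%) and 25 of 54 between p3 and pMN (46.3% beside 49.5%).

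Hoxb1 +7364, between genes and holding a copy of the retinoic acid repeat, was the 1 Hox element called higher in p3. It passed the filter through its p3 values, since its day 6 means were 40.4 in p0-1, 84.2 in p2 and 43.2 in pMN. At day 6 it was at 155, 199.8, 219 and 255 in p3. It was at 24.8, 35.3, 44.3, 47.3 and 50.3 in p0-1, between 53.8 and 136 in p2 and at 31.4, 36.6, 47.9 and 57.1 in pMN. No sample of another type reached the p3 samples, and p3 was higher by 2.07 ± 0.212 than p0-1 (SE, adjusted p = 1.50e-05), by 1.23 ± 0.244 than p2 (adjusted p = 0.00122) and by 1.99 ± 0.210 than pMN (adjusted p = 4.55e-05). With no filter, where all 111638 elements were tested, limma gave adjusted p = 5.06e-06, 0.000627 and 1.31e-05 for these differences. In that setting 2 of 87 Hox elements were called higher in p3 in at least 1 fit, where 18782 of the 111638 elements were.

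The difference in Hoxb1 +7364 was present before day 6. On day 5 the 5 p3 samples lay between 129 and 191 and the 5 pMN samples between 58.6 and 92.0, a difference of 1.03 ± 0.135 (SE, adjusted p = 2.43e-05), which fell to 0.81 when replicate 3 was left out. On day 4 the p3 samples lay between 60.7 and 92.2 and the pMN samples between 44.7 and 68.2, with overlap and under the filter. In NMPs it was at 37.7, 63.4 and 69.1. Within p3 the element rose by 1.31 ± 0.176 from day 4 to day 6 (SE, adjusted p = 5.18e-05).

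Hoxa4 -3089 was the element most strongly lower in p3. Its day 6 values were 44.7, 82.4, 191 and 274 in p3, between 483 and 1177 in p2 and between 783 and 1775 in p0-1, without overlap. The difference of p3 was -3.29 ± 0.432 from p0-1 (SE, adjusted p = 9.91e-05) and -2.75 ± 0.397 from p2 (adjusted p = 0.000116). Against pMN, at 271, 417, 722 and 929, the difference was -2.02 ± 0.530 and narrowly missed the threshold (adjusted p = 0.0110).

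At this element the replicate number moved with the level. Within replicate 2, p3 was at 274 and 191, pMN at 929 and 722, p2 at 992 and 1177 and p0-1 at 1605 and 1775. Within replicate 3, p3 was at 82.4 and 44.7, pMN at 417 and 271, p2 at 483 and 887 and p0-1 at 783 and 1078. In both replicates p3 was the lowest type and pMN the next.

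The other elements lower in p3 at day 6 were nearer the limits. Hoxa4 +3807 was at 56.3, 82.4, 107 and 167 in p3 against 184 to 394 in p2, a difference of -1.49 ± 0.269 (SE, adjusted p = 0.000603), and its difference from p0-1 was -1.67 (adjusted p = 0.00237, and 0.0162 without replicate 2). Hoxc4 -4516 was at 266, 351, 514 and 620.0 in p3 and between 658 and 1057 in p0-1, a difference of -1.02 ± 0.237 (SE, adjusted p = 0.00511) that missed a limit without replicate 1 (adjusted p = 0.0120), without replicate 3 (-0.80) and with centered samples (-0.97). Hoxa6 +22, at the Hoxa6 promoter, was at 49.5, 60.1, 66.1 and 74.2 in p3 and between 100.0 and 169 in p2, a difference of -1.02 ± 0.169 (SE, adjusted p = 0.000325, and 0.0160 without replicate 2) that fell under the size limit with centered samples (-0.98) and with the replicate number of the titles as a block (-0.95), where these samples share 2 numbers. It passed the filter through its p2 values. Hoxc4 +7497 was at 130.1, 136, 167.5 and 195 in p3 and at 290.1, 306, 328 and 375 in pMN, a difference of -1.001 ± 0.149 (SE, adjusted p = 0.000378). Beside these differences, Meox1 -2722 was at 856 in p3 and 369 in pMN and Stmn2 +194 at 159 and 272, as day 6 means, and the part of other cells was not tested.

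The earlier course was followed by setting p3 against pMN, its neighbor in the series, at days 4 and 5. Of 56 Hox elements tested, 1 was higher (6.25% of all elements were) and 3 lower (12.1%) in p3 at either day. At day 4 these were 0 higher and 2 lower (1.59% and 5.64% of all), and at day 5 they were 1 and 1 (6.46% and 11.4%). At day 4, Hoxd4 -643 was at 22.2 to 67.0 in p3 and 150 to 225 in pMN, a difference of -1.97 ± 0.201 (SE, adjusted p = 3.00e-06). It passed the filter through its pMN values. Hoxb4 +1038, in the Hoxb4 gene, was at 571, 690.1, 705, 740.2 and 745 in day 4 p3 and between 1327 and 1562 in pMN, a difference of -1.03 ± 0.0791 (SE, adjusted p = 2.06e-07). At day 5, Hoxc4 +7497 was at 101 to 126 in p3 and 180.4 to 274 in pMN, a difference of -1.03 ± 0.117 (SE, adjusted p = 6.76e-06, and -0.89 without replicate 2) that was also under the size limit with centered samples. The plot of p3 and early elements shows every sample.

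**Figure D3:**
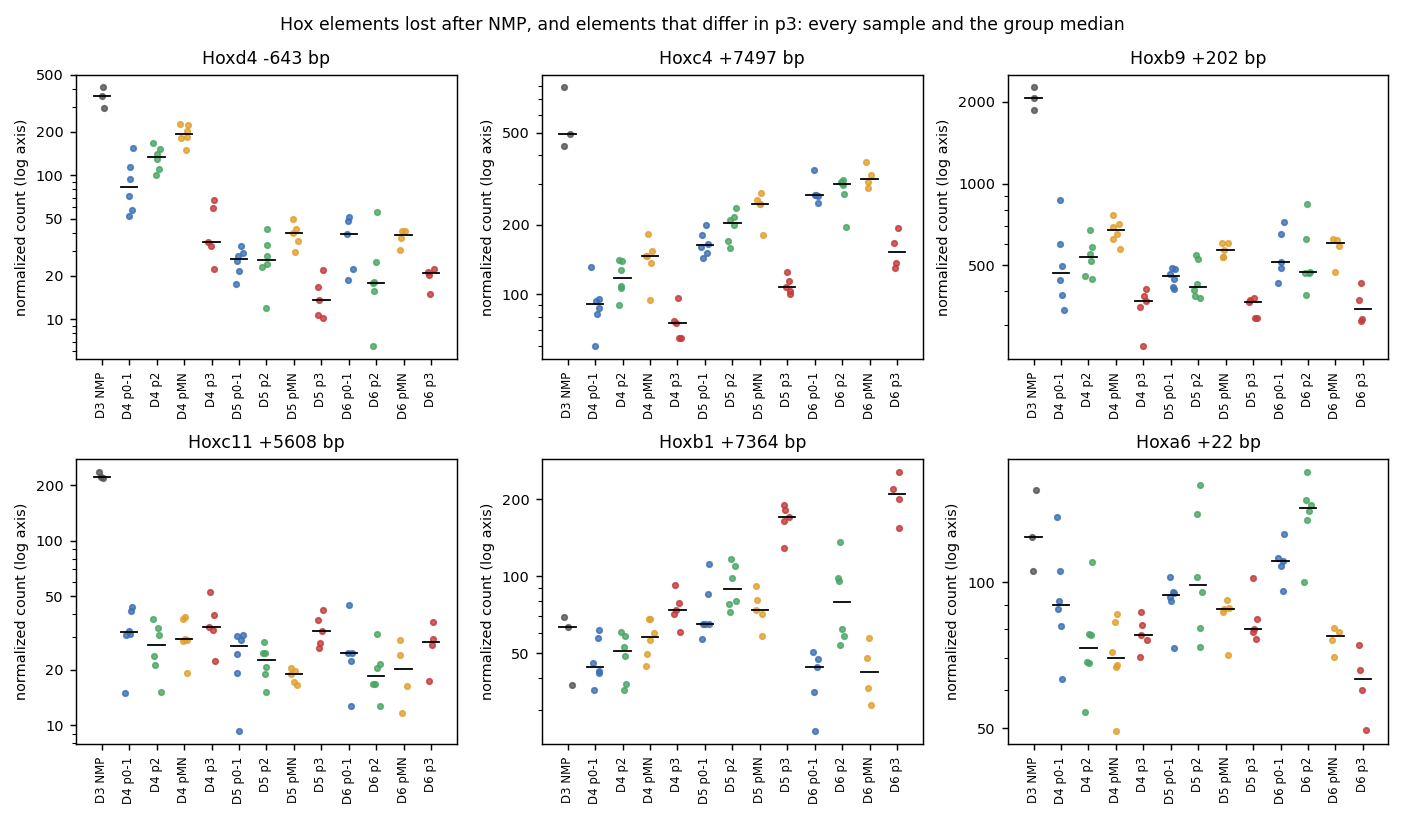
Normalized counts (log axis) of 6 Hox elements in each sample, by day and cell type; each point is a sample and the black bar is the group median. Hoxb9 +202 and Hoxc11 +5608 are highest in NMPs, Hoxd4 -643 falls later in pMN than in p3, and Hoxb1 +7364 is highest in p3 at days 5 and 6.

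Whether the change from day 4 to day 6 itself differed between types was tested with an interaction term in limma. None of 54 Hox elements differed between p3 and pMN by both limits, where 10.2% of all elements did, and none of 55 between p0-1 and pMN, where 3.62% did. Of these elements, 16 and 12 had an unadjusted p under 0.05, beside 29.4% and 18.7% of all elements. In p3, 2 elements passed the limit on the adjusted p but not that on size: Hoxb4 +1038, whose change exceeded that in pMN by 0.70 ± 0.111 (SE, adjusted p = 0.000131), and Hoxc4 +34545, chosen after its values were seen, by 0.74 ± 0.123 (adjusted p = 0.000194). The largest difference was at Hoxa4 -3089, whose change differed from that in pMN by -1.90 ± 0.528 in p3 (SE, adjusted p = 0.0123) and by 1.196 ± 0.366 in p0-1 (adjusted p = 0.0443).

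Among p0-1, p2 and pMN at day 6, none of 54 Hox elements tested passed both limits in limma, where 13.4% of all 34722 elements did, and none did with limma voom on the recovered reads. With no filter 3 of 87 did, where 15570 of all 111638 elements did. By pair, 5.01% of all elements passed between p0-1 and p2, 3.64% between p2 and pMN and 11.8% between p0-1 and pMN. Unadjusted p was under 0.05 for 16 of 54 between p0-1 and p2 (29.6%, beside 33.6% of all elements), for 7 of 54 between p2 and pMN (13% beside 26.5%) and for 26 of 53 between p0-1 and pMN (49.1% beside 40.2%). The largest difference was again at Hoxa4 -3089, where pMN differed from p0-1 by -1.27 ± 0.350 (SE, adjusted p = 0.0202). With the replicate number as a block it passed both limits, at -1.22 (adjusted p = 0.000618) by the numbers of the titles and -1.33 (adjusted p = 0.00683) by those of the descriptions; p0-1 and pMN share 2 numbers, at correlations of 0.710 and 0.776. Hoxa6 +22 was lower in pMN, at 70.1, 76.2, 78.9 and 80.6, than in p2, at 100.0 to 169, but the difference of -0.76 ± 0.143 (SE, adjusted p = 0.00416) was below the limit on size.

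Between SAG concentrations at day 5, no Hox element was called in p0-1 (0 against 10 nM), p2 (10 against 100 nM), pMN or p3 (100 against 500 nM) by limma or by limma voom. Of 54 or 55 Hox elements tested in each, 2, 2, 0 and 2 had an unadjusted p under 0.05, or 3.7%, 3.7%, 0.0% and 3.64%, beside 15.1%, 11.6%, 2.65% and 0.491% of all elements. The background of calls was low as well, with 0.00251% of 39881 elements called in any of the 4 fits, 0.00318% in p0-1 and 0.0% in p2, pMN and p3. The replicate numbers paired the samples in the p0-1 and p2 fits, and blocked by title numbers 485 of all elements were called in any of the 4 fits, or 476 with description numbers, in place of 1, with 0 Hox elements in both. The largest differences were -0.40 at Hoxb1 +31835 in p0-1, -0.39 at Hoxa6 +22 in p2, -0.42 at Hoxa4 -3089 in pMN and 0.37 at Hoxb3 -7000 in p3. The last 2 fits had 3 samples against 2, which limits the differences they can detect. Their samples share 2 replicate numbers, too few for the rule on pairing. Samples of the same number still correlated, at 0.615 and 0.692 in pMN and at 0.618 and 0.622 in p3. The fits without a block took no account of this.

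Genes that regulate Hox genes or act with them were counted in the same fits, over 183 elements of Cdx, Meis, Pbx, Evx and retinoic acid pathway genes and of Gdf11, a ligand of the TGF-beta family. From NMP to day 4, 73 were tested, 31 rose (24.6% of all elements did) and 25 fell (28.1%). The 5 tested elements of Cdx1 and Cdx2, which activate trunk Hox genes, all fell, as did all 3 tested elements of Evx1, at the end of the Hoxa cluster. Of Meis1 and Meis2, whose products bind DNA together with Hox proteins, 11 of 17 and 7 of 9 tested elements rose. All 3 tested elements of Rarb, a retinoic acid receptor, rose, 4 of 7 of Rara, another such receptor, fell, and both tested elements of Cyp26a1, which degrades retinoic acid, fell, as did both of Gdf11. From day 4 to day 6, 30 of 86 tested elements rose and 12 fell (26.4% and 10.8% of all), with 13 of 24 rising at Meis1.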

How the data were processed

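CaTS-ATAC profiles of 67 samples were used. Per the labels and the study's methods, the authors aligned reads to mm10 with nf-core/atacseq, called peaks with MACS, merged those seen in 2 or more replicates, counted reads and deposited variance-stabilized values from DESeq2, which are on a log2 scale. The deposited annotation gives coordinates and genes. The transformation was inverted to normalized counts and reads, and 100% of values below 1000 reads were whole. The Hox members, gene lists, motifs and comparisons were chosen with earlier results of these data known.

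Each comparison was fitted to its own samples with limma 3.58.1 (R 4.3.3; trend on the mean, two-sided, SAG concentrations pooled except where compared). Tests covered all elements averaging more than 100 normalized counts across the fit's samples, with Benjamini-Hochberg adjustment over them. Calls took an adjusted p below 0.01 together with a log2 change over 1 in size. The fit was tested on simulated data. Replicates are described as independent differentiations. Pooled groups hold samples of the same replicate number from 2 SAG concentrations, and the main fits counted these samples as independent. The 4 day 6 samples of pMN, and those of p3, carry the numbers 2 and 3 alone. The SD, SE and adjusted p values of the main fits take no account of these shared numbers. In 7 of 20 comparisons, samples with the same number deviated together, with a correlation above 0.1 for each of 3 shared numbers. Comparisons with 2 shared numbers could not meet this rule, but their correlations also lay between 0.284 and 0.776. Those of p3 against the other NPs at day 6 lay between 0.413 and 0.564. For 15 samples the description gives another number than the title. Named elements were the nearest to each TSS, the highest per kb of each cluster and the 4 largest called changes in each direction of 4 comparison families. Other names are marked as chosen after their values were seen, or stand beside a motif or as the largest value of a comparison. Sequences come from GRCm38, in which all 111638 elements had a sequence.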

Additional observations from a re-analysis of the deposited data

Results flagged for a closer look

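The highest sample of 1 of 35 groups was far from the others, judged by its gap to the nearest sample over the range of the group. At Hoxa2 -176 in p3 at day 4, 100 nM SAG replicate 1 was at 2017 normalized counts and the next highest of the 5 samples at 1601, a gap of 0.871 of the range. Chance alone flags about 1 in 20 groups. The change from day 4 to day 6 was compared between p3 and pMN and between p0-1 and pMN, and no Hox element differed by both limits in either; other pairs of types were not compared.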

How the results depend on the processing

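The 87 elements are few, and elements with low counts were not tested; normalized counts assume that the size factors fit every sample. Of Hox elements called, those from NMP to day 4 went from 38 to 11 with an absolute log2 fold change above 2 and to 24 with samples centered on their median, those from day 4 to day 6 from 23 to 8 with the stricter fold, and those between p3 and other NPs at day 6 from 6 to 2 with the stricter fold and to 3 with centering. Those between p3 and pMN at days 4 and 5 went from 4 to 0 with the stricter fold. Among p0-1, p2 and pMN at day 6, the count went from 0 to 3 without the filter on the mean (Hoxb1 +14676, Hoxb1 +35950 and Hoxc4 +10363, all of low counts) and to 1 with the replicate block, by the numbers of the titles or of the descriptions. With the block the element was Hoxa4 -3089 between p0-1 and pMN, whose samples share 2 numbers at correlations of 0.710 and 0.776. The rule for pairing asked for 3 shared numbers, so this comparison could not meet it. Where the numbers paired the samples the block moved no count of Hox calls by more than 1, and over the other families its fits gave 38, 26, 5, 4 and 0 by title numbers, in the order of the report, within 1.5 times the counts without it. Leaving out 1 replicate at a time gave 34 to 43 from NMP to day 4, 22 to 26 from day 4 to day 6, 4 to 5 between p3 and other NPs at day 6, and 4 and 0 throughout for p3 against pMN and for SAG concentrations, though without replicate 3 those 4 were 0 higher and 4 lower, with Hoxb1 +7364 at 0.81. Leaving out the day 4 p0-1 library that stood apart, an alternative chosen after seeing the data, gave 40 and 23 for the first 2 families. Of 195 refitted values of named elements, 185 stayed past the limits and 10 missed one, with 0 changes of sign. These elements were picked as the largest called changes, so the share does not describe other calls. All 10 that missed a limit were differences of p3 from another NP type at day 5 or day 6. The cause of these changes was not tested, apart from the stricter fold, which can only remove calls.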
